A study of Homo sapiens with 4 samples.

Results

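The miR-200 family consists of 5 mature miRNAs, hsa-miR-200a-3p, hsa-miR-200b-3p, hsa-miR-200c-3p, hsa-miR-141-3p and hsa-miR-429. They were selected by name among the 939 miRNAs of the array, of which 851 were human, and all 5 had probes on it. Their levels were compared between MG cells and non-MG cells, 2 samples of each, which are subpopulations of HCT116, a human colon cancer cell line with wild-type p53. MG cells had crossed a transwell membrane towards serum in repeated rounds of selection, and non-MG cells had stayed on its upper side, so that the labels call them high and low migratory cells. The labels name no other treatment for either group. RNA carrying 1 dye was hybridised to an Agilent human miRNA array.

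Members of the miR-200 family are known as guardians of the epithelial state. They bind the mRNAs of ZEB1 and ZEB2, transcription factors that repress E-cadherin during epithelial to mesenchymal transition (EMT), and ZEB1 in turn represses transcription of the miR-200 genes. Loss of the family is a common mark of carcinoma cells that have moved towards a mesenchymal state, which is why its level in cells selected for migration is of interest. Neither ZEB1 nor any other mRNA was measured on these arrays. From earlier work, the study describes MG cells as EMT intermediates in which the marker genes ZEB1 and VIM are highly expressed.

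The 5 members come from 2 clusters. RefSeq places them on assembly GRCh38.p14 as follows. MIR200B, MIR200A and MIR429 follow each other in this order on the plus strand of chromosome 1, with 664 and 1052 bases between neighbouring hairpins, all inside the long noncoding gene MIR200BHG. MIR200C and MIR141 lie 330 bases apart on the plus strand of chromosome 12, inside the long noncoding gene MIR200CHG, between the coding genes PTPN6 and PHB2. The scanner files name another build, GRCh37, so no positions are given. The clusters do not match the seeds, the bases 2 to 8 from the 5′ end through which a miRNA mainly recognises its targets. The mature RefSeq sequences are shown 5′ to 3′ with the seed in capitals because the family splits by this stretch, first the members with the seed AAUACUG and then those with AACACUG.
hsa-miR-200b-3p: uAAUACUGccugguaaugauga
hsa-miR-200c-3p: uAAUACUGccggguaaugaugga
hsa-miR-429: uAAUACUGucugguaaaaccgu
hsa-miR-200a-3p: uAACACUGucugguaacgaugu
hsa-miR-141-3p: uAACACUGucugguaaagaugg
The seeds differ at 1 base, U4C counted from the 5′ end and written from miR-200b-3p to miR-200a-3p. Among 2370 mature human miRNAs in the RefSeq table, AAUACUG was the seed of 3 and AACACUG of 2, in each case the members named here. Outside the seed the closest relatives lie in different clusters. Over the first 22 bases, miR-200a-3p and miR-141-3p differed at 2 positions (C17A and U22G), and miR-200b-3p and miR-200c-3p at 2 positions (U11G and A22G). Sequences this close may share signal on hybridisation, and this was not tested.

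The signal of a miRNA is the sum of the background-subtracted intensities of those of its probes that exceeded 3 times their error. Scaling set the 75th percentile over the 116 miRNAs detected on every array to a common value. Of all miRNA spots, 8.71% to 11.1% per array rose well above background, and 0 were saturated. The single slide carried the non-MG arrays in row 1 and the MG arrays in row 2, so that row and group cannot be told apart. With 2 arrays in each group, their number limits the precision of every value. Nothing in the labels says that replicates came from separate cultures, so p-values measure a spread between these samples that may be technical. In the main test this spread was shared by all miRNAs tested and was not each miRNA's own.

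All 5 members were detected on all 4 arrays, each through 2 probes with 8 spots per probe. For miR-200c-3p, miR-200b-3p and miR-141-3p, 15 or 16 of 16 spots stood well above background on every array. For miR-200a-3p this held for 13 and 12 spots on the non-MG arrays and 8 on each MG array, and for miR-429 for 16 and 13 spots against 16 and 9. The error that the scanner software gives for 1 array was between 7.80% and 15.7% of a member's signal, highest for miR-429 and miR-200a-3p on the second MG array.
The other arm of the same hairpins, the 5p or passenger strand that is usually degraded, was a different case. hsa-miR-200a-5p, hsa-miR-200b-5p, hsa-miR-200c-5p and hsa-miR-141-5p were flagged as detected on 0 of 4 arrays. Their 15 probes gave 60 values in all, of which 0 exceeded 3 times their error, and the values lay between -2.07 and 1.91 before scaling. At this sensitivity only the 3p arms could be compared between MG and non-MG cells.

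All 5 members had lower mean log2 signals in MG cells than in non-MG cells. So had 84 of the 115 human miRNAs detected on all arrays. Of the 3 members tested, 1 passed the test, beside 24.6% of all 57 miRNAs tested. miR-141-3p was lower in MG cells, miR-200c-3p and miR-200b-3p showed no detectable change, and the dim miR-200a-3p and miR-429 had lower signals that were not part of the main test. Human miRNAs were tested when they reached an unscaled signal of 50 on at least 1 array, which 57 did. miR-200c-3p, miR-200b-3p and miR-141-3p were among them, and miR-200a-3p and miR-429 stayed below 50 on every array.

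**Figure D1:**
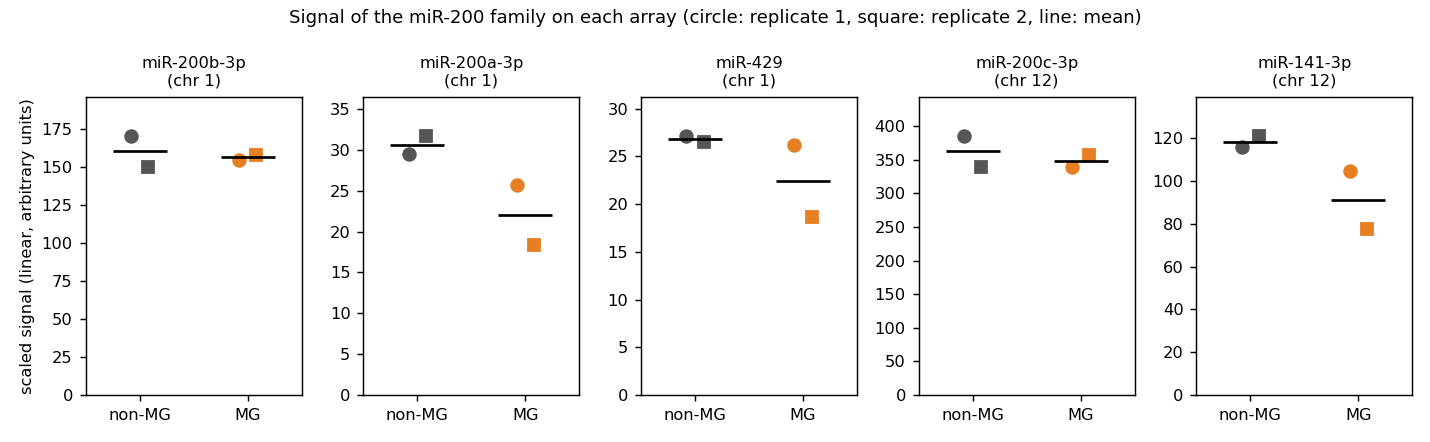
Scaled signal (linear scale, arbitrary units, axis from 0) of each family member on the 2 non-MG arrays (grey) and the 2 MG arrays (orange), with circles for replicate 1, squares for replicate 2 and lines for group means. For miR-141-3p, miR-200a-3p and miR-429 both MG points lie below both non-MG points, and for miR-200b-3p and miR-200c-3p the groups overlap.

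On chromosome 12, miR-200c-3p is the first hairpin of its cluster and the member most often used to mark epithelial cells. Its scaled signals were 386 and 339 in non-MG cells and 339 and 358 in MG cells. The groups overlapped almost completely. Means were 363 ± 32.9 (SD, n = 2) in non-MG cells and 348 ± 13.2 (SD, n = 2) in MG cells, a fold change of 0.962 with a 95% confidence interval of 0.782 to 1.18 (adjusted p = 0.859, limma over 57 miRNAs, two-sided). The interval, built on a spread shared by all miRNAs tested, does not reach a 1.5-fold change in either direction. That size served as criterion in the study. With the scanner software's total per miRNA, alone among the alternative settings, the interval passed it downwards, at -0.96 to 0.40 in log2.
miR-141-3p is processed from the next hairpin of the same transcript and carries the other seed. Its scaled signals were 116 and 121 in non-MG cells and 105 and 77.6 in MG cells. The groups did not overlap, and the second MG array was well below the first. Means were 119 ± 3.94 (SD, n = 2) in non-MG cells and 91.2 ± 19.2 (SD, n = 2) in MG cells, a fold change of 0.761 with an interval of 0.619 to 0.936 (adjusted p = 0.0410, limma). RNA was taken from whole populations, so fewer cells with a miRNA and less of it per cell cannot be told apart. The call was lost in 13 of 17 alternative settings, among them most of those that left out 1 array. Leaving out non-MG replicate 1 raised the adjusted p from limma to 0.225, and leaving out non-MG replicate 2 raised it to 0.373. With MG replicate 2 left out it was 0.746 at a fold change of 0.884. In all 17 settings the signal was lower in MG cells, with fold changes between 0.651 and 0.884.

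On chromosome 1, miR-200b-3p is processed from the first hairpin and shares its seed with miR-200c-3p. Its scaled signals were 171 and 150 in non-MG cells and 155 and 158 in MG cells, so that both MG values lay between the non-MG values. Non-MG cells averaged 160 ± 14.7 (SD, n = 2) and MG cells 156 ± 2.33 (SD, n = 2), a fold change of 0.979 with an interval of 0.796 to 1.20 (adjusted p = 0.973, limma).
miR-200a-3p, from the middle hairpin, carries the seed of miR-141-3p. Its scaled signals were 29.4 and 31.7 in non-MG cells and 25.7 and 18.4 in MG cells. As with miR-141-3p, the groups did not overlap and the second MG array was the lowest. Non-MG cells averaged 30.6 ± 1.63 (SD, n = 2) and MG cells 22.0 ± 5.13 (SD, n = 2), a fold change of 0.711.
miR-429, from the last hairpin, has the seed of miR-200b-3p. Its scaled signals were 27.2 and 26.5 in non-MG cells and 26.3 and 18.6 in MG cells. Non-MG cells averaged 26.8 ± 0.516 (SD, n = 2) and MG cells 22.4 ± 5.40 (SD, n = 2), a fold change of 0.824. The first MG array was close to the non-MG arrays, and only the second stood apart. When the signal minimum was set to 20, 91 miRNAs were tested and both entered the fit. Of these 91, 16.5% were called. miR-200a-3p then had a fold change interval of 0.567 to 0.892 (adjusted p = 0.0272, limma) and miR-429 one of 0.657 to 1.03 (adjusted p = 0.242). In that fit miR-141-3p was no longer called (adjusted p = 0.0752), so that each of the 2 fits called 1 member with the seed AACACUG and not the same one. The call of miR-200a-3p did not survive the loss of non-MG replicate 1, non-MG replicate 2 or MG replicate 2, where limma gave adjusted p of 0.305, 0.451 and 0.631.

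**Figure D2:**
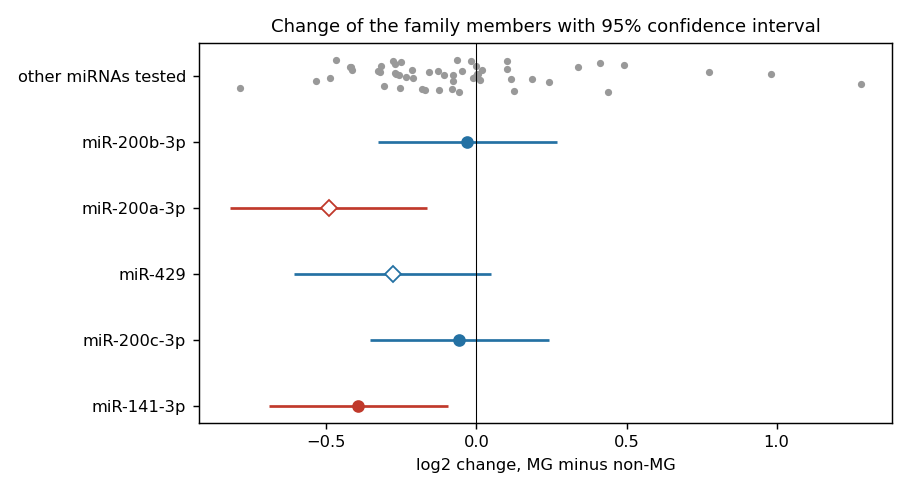
Log2 change, MG minus non-MG, of each family member with its 95% confidence interval. Filled circles are from the fit over 57 miRNAs, open diamonds are miR-200a-3p and miR-429 from the fit with a signal minimum of 20 over 91 miRNAs, red is the seed AACACUG and blue the seed AAUACUG, and grey points are the other miRNAs tested. The intervals of miR-141-3p and miR-200a-3p stay below 0, while those of the 3 members with the other seed include it. Intervals are not adjusted for the number of miRNAs tested and come from 2 fits. Those of miR-200a-3p and miR-429 overlap, so a difference between the seeds cannot be read from them.

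Counted over the family, 1 of 3 members tested was called, as lower in MG cells, and 0 were called as higher. Among all 57 miRNAs tested, limma called 24.6%, with 14.0% lower and 10.5% higher in MG cells. The split of all calls depended on the scaling, with 6 of 14 higher as reported, 7 of 11 after scaling to the median and 6 of 11 after quantile normalization. No member reached a 1.5-fold change of the means, against 7.02% of the miRNAs tested. Both MG arrays lay below both non-MG arrays for 3 of 5 members, and this pattern was common, at 40.4% of the 57 miRNAs tested and 40.0% of the 115 human miRNAs detected on all arrays. The opposite pattern, both MG arrays above, was seen for 0 of 5 members and 21.1% of the 57. All 5 fold changes were below 1, with a median log2 change of -0.28. The median over those 115 miRNAs was -0.11, with 84 of them lower in MG cells, and over the 57 tested miRNAs it was -0.08. The log2 changes of -0.06 for miR-200c-3p and -0.03 for miR-200b-3p were therefore close to that of a typical miRNA on these arrays.

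The medians of the clusters lay closer together than those of the seeds. The median log2 change was -0.28 over the 3 members on chromosome 1, where single changes ran from -0.49 to -0.03, and -0.23 over the 2 members on chromosome 12, which had changes of -0.39 and -0.06. By seed it was -0.44 for AACACUG, with changes of -0.49 for miR-200a-3p and -0.39 for miR-141-3p, and -0.06 for AAUACUG, with changes from -0.28 for miR-429 to -0.03 for miR-200b-3p. These medians are descriptions over few members and were not tested. On the second MG array the sum for miR-200a-3p lacked its dimmer probe, and its brighter probe alone changed by -0.32 in log2. The medians also depended on that array. Without it the log2 changes were -0.25 for miR-200a-3p and -0.18 for miR-141-3p. They were then -0.05 for miR-200b-3p, -0.10 for miR-200c-3p and -0.03 for miR-429.

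Ratios of 2 members within 1 array do not depend on the scaling between arrays. The signal of miR-200b-3p over that of miR-200c-3p, which share a seed across the clusters, had a log2 ratio of -1.18 and -1.18 in non-MG cells and -1.13 and -1.18 in MG cells. This ratio was the steadiest of the 10 member pairs, with a range of 0.050 over the 4 arrays.
The ratio of miR-200a-3p over miR-141-3p, which share the other seed across the clusters, was -1.97 and -1.93 against -2.03 and -2.08, a range of 0.142. These 2 pairs, which have the most similar sequences and join members of different chromosomes, kept nearly the same ratio on every array. Whether shared signal on hybridisation contributed was not tested. On the second MG array the sum for miR-200a-3p rested on 1 probe. For comparison, the median range over the 6555 pairs among the 115 human miRNAs detected on all arrays was 0.604, with quartiles of 0.408 and 0.879.
Pairs within a cluster had wider ranges than the pairs above, from 0.296 for miR-200a-3p over miR-429 to 0.865 for miR-200b-3p over miR-200a-3p. Wide ranges were also seen across clusters, at 0.723 for miR-200b-3p over miR-141-3p and 0.861 for miR-200a-3p over miR-200c-3p. The ratio of miR-200c-3p over miR-141-3p was 1.74 and 1.48 in non-MG cells and 1.69 and 2.20 in MG cells. Its groups overlapped, with a mean difference of 0.34 beside SDs of 0.179 in non-MG and 0.361 in MG cells. The range over the 4 arrays was 0.720, which includes any difference between the groups. The ratio of miR-200b-3p over miR-200a-3p was 2.54 and 2.24 against 2.59 and 3.10, a range of 0.865. Here the MG arrays lay above the non-MG arrays, by little on the first. miR-429 had wider ranges against the members with its own seed, at 0.585 with miR-200b-3p and 0.582 with miR-200c-3p, than against miR-141-3p, at 0.200, and miR-200a-3p, at 0.296. In 7 of 10 pairs the groups did not overlap, compared with 55.9% of the 6555 pairs. The pairs share members and so are not independent. The 7 include miR-200b-3p over miR-200c-3p, where the first non-MG array and the second MG array both gave -1.177 after rounding. With 2 arrays against 2, an exact two-sided permutation test of any of these ratios cannot give a p below 0.333, so no difference between members was established.

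**Figure D3:**
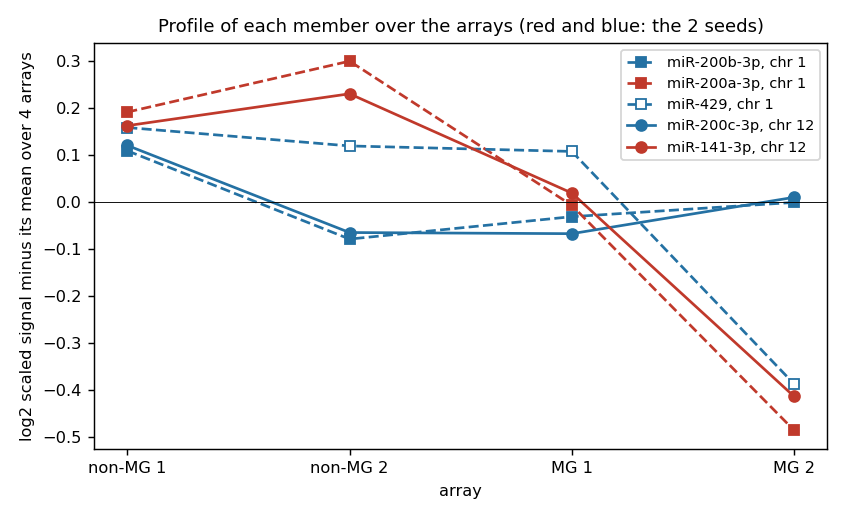
Log2 scaled signal of each member on each array, minus the member's mean over the 4 arrays. Red is the seed AACACUG, blue the seed AAUACUG, circles with full lines are chromosome 12 and squares with dashed lines chromosome 1, and lines only join the points of 1 miRNA. miR-200b-3p and miR-200c-3p run together, as do miR-200a-3p and miR-141-3p, and the last 2 fall with miR-429 on the second MG array.

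Of the MG arrays, the second held the lower values of these 3 members. Between the second and the first MG array the log2 difference was -0.43 for miR-141-3p, -0.48 for miR-200a-3p and -0.50 for miR-429, compared with 0.08 for miR-200c-3p and 0.03 for miR-200b-3p. For miR-200a-3p the dimmer of its 2 probes had dropped out of the sum on the second MG array, and the brighter probe alone gave scaled signals of 21.7 and 18.4 on the MG arrays. The other miRNAs detected on all arrays had median differences of -0.07 among 54 that reached 50 and -0.06 among 56 that did not. These 3 members thus lay further down than the typical miRNA of either brightness. Of the other miRNAs, 36 of the 54 and 39 of the 56 were lower on the second MG array by any amount. Most of these differences were smaller than those of the 3 members. Some other miRNAs fell at least as far, and examples were picked by their values. Their scaled signals on the first and second MG arrays were 112 and 72.7 for miR-19b-3p, 126 and 80.1 for miR-1260a, and 24.9 and 15.3 for miR-30b-5p. The second MG array also had the lowest share of spots well above background, 8.71%. Without it, the log2 change was -0.18 for miR-141-3p, -0.25 for miR-200a-3p and -0.03 for miR-429.
Probes of a member did not always move alike. For miR-141-3p the brighter and the dimmer probe had fold changes of 0.764 and 0.756, and in both the MG arrays lay below the non-MG arrays. For miR-200b-3p they disagreed. Its brighter probe gave scaled signals of 130 and 96.9 in non-MG and 119 and 120 in MG cells, a fold change of 1.07, while the dimmer probe gave 41.2 and 52.9 against 35.4 and 38.6, a fold change of 0.792 without overlap. The dimmer probe of miR-200c-3p had a fold change of 0.760, with overlapping groups, against 0.986 for its brighter probe.
For miR-200a-3p the brighter probe had a fold change of 0.801 and the dimmer one 0.626. That dimmer probe gave scaled signals of 5.57 and 5.64 in non-MG and 3.95 and 3.11 in MG cells, had 5 and 4 of 8 spots well above background on the non-MG arrays and 0 on the MG arrays, and fell below 3 times its error on the second MG array, where the sum therefore rests on 1 probe. When every miRNA was represented by its brightest probe, which also changes the scaling, the fold change of miR-200a-3p was 0.854. Both probes of miR-429 were dim, with fold changes of 0.874 and 0.763.

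**Figure D4:**
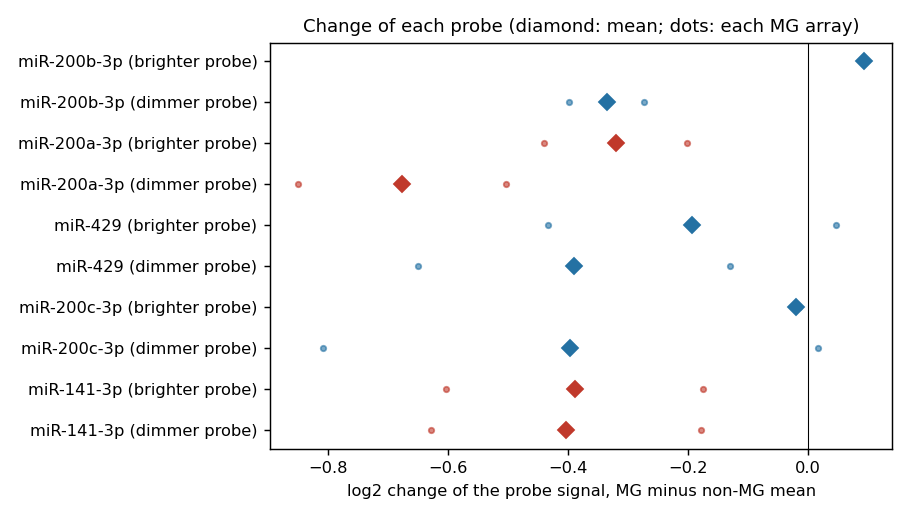
Log2 change of each of the 10 probes of the family, where diamonds are means over the 2 MG arrays and dots single MG arrays, each relative to the mean of the non-MG arrays. Red is the seed AACACUG and blue the seed AAUACUG. The 2 probes of miR-141-3p agree, whereas the probes of miR-200b-3p lie on opposite sides of 0.

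Other miRNAs linked to EMT or to epithelial identity were taken from a list of 23, all present on the array. The list was not divided into miRNAs that oppose EMT and miRNAs that promote it, so its counts pool both. Detection on any array was recorded for 11 of them and on every array for 8, and 4 reached the signal minimum. Among the 4 tested, 1 was called lower and 0 higher, beside 14.0% lower and 10.5% higher among all 57. The miRNA called was miR-31-5p, which is abundant in colorectal cancer cells, with scaled signals of 159 and 194 in non-MG and 126 and 138 in MG cells. Its fold change of 0.75 (adjusted p = 0.0313, limma) was close to that of miR-141-3p. It was no longer called when non-MG replicate 1, non-MG replicate 2 or MG replicate 1 was left out, at adjusted p of 0.0634, 0.349 and 0.134 from limma. Fold changes were 0.863 for miR-34a-5p, a p53 target that represses SNAI1, 0.987 for miR-21-5p, a widely expressed oncogenic miRNA, and 0.836 for miR-221-3p, with adjusted p of 0.314, 0.993 and 0.211 (limma).
The epithelial miRNA miR-205-5p, which also targets ZEB1 and ZEB2, was detected on 0 of 4 arrays. Of 5 colon epithelium markers, miR-200c-3p and miR-141-3p were detected throughout, while miR-192-5p, miR-194-5p and miR-215-5p were detected on no array, so these defining markers of intestinal epithelium were absent at this sensitivity. None of 6 blood cell or 4 striated muscle miRNAs was detected. Of 5 smooth muscle and fibroblast miRNAs, miR-145-5p alone was detected, on 3 arrays, with summed signals of 6.14 to 9.24 in non-MG and 0 to 4.35 in MG cells. The endothelial miR-126-3p lay between 6.61 and 10.3 on all arrays. Of 3 neuronal miRNAs miR-128-3p was detected on all arrays, miR-9-5p on 1 and miR-124-3p on none, with summed signals of 35.4 to 53.4 in non-MG and 31.6 to 33.6 in MG cells.

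The 3 members tested had a mean profile, as deviations from each miRNA's own mean log2 signal, of 0.13 and 0.03 in non-MG cells and -0.03 and -0.13 in MG cells. Among the 54 other miRNAs tested, those closest to it over the 4 arrays were miR-151a-5p, let-7f-5p and miR-107, with root mean square differences of 0.054, 0.055 and 0.065 in log2. Their fold changes were 0.956, 0.916 and 0.948, and none was called (adjusted p = 0.846, 0.623 and 0.790, limma). This average joins miR-141-3p, which was called, with 2 members that were not, and so describes none of them closely.

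**Figure D5:**
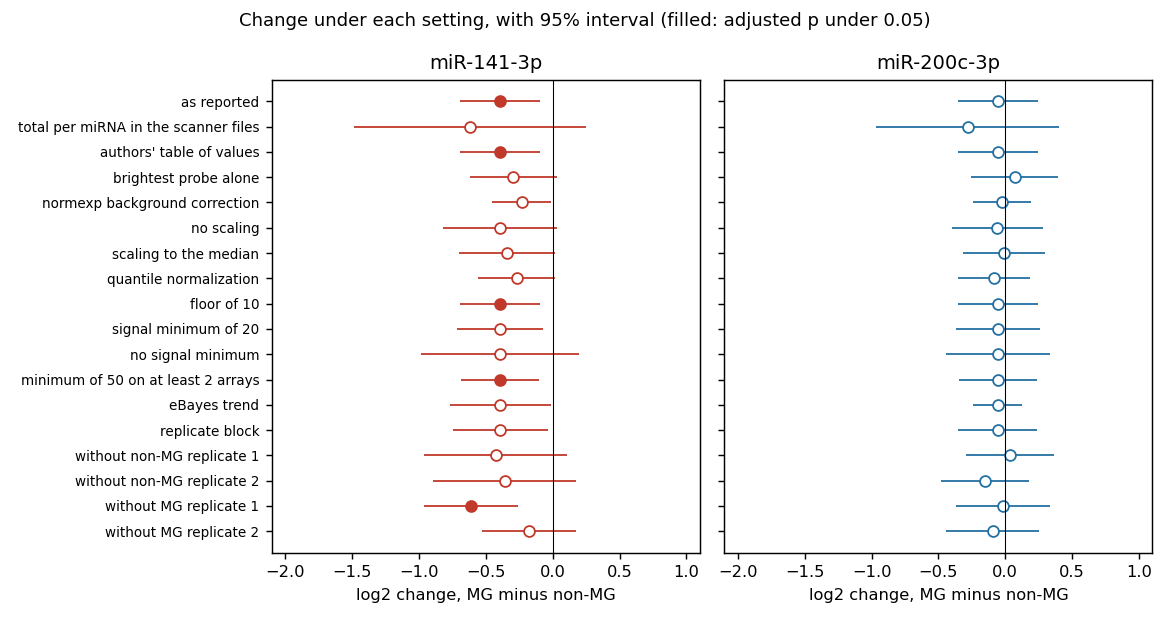
Log2 change, MG minus non-MG, of miR-141-3p (left, red) and miR-200c-3p (right, blue) as reported and under each of 17 alternative settings, with 95% confidence intervals. Filled points have an adjusted p under 0.05 (limma). miR-141-3p stays below 0 in every setting but is filled in only 4 of the alternatives, and the intervals of miR-200c-3p include 0 in all of them.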

How the data were processed

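The authors deposited, for each of the 4 arrays, the scanner output of Agilent Feature Extraction 10.7.1.1, which holds intensity values per spot, probe and miRNA and flags of detection, background-subtracted and not normalized between arrays. They also deposited a table with 1 intensity per miRNA and array. The sum of the probe intensities above 3 times their error equalled that table within 0.05% for all 142 miRNAs detected, and was used. The total that the scanner software wrote per miRNA lay above this sum for 48 of them and served as an alternative. The study names GeneSpring in its methods and a 1.5-fold criterion in its results, but no normalization or test for the arrays. The labels describe a cRNA amplification kit for gene expression arrays, which does not match a miRNA array, so the labelling step is uncertain. Groups were taken from the sample titles, which match the labelled migratory group, whereas another label calls all 4 samples control.

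Signals were scaled to the 75th percentile (158 and 142 for non-MG, 153 and 148 for MG before scaling), given a floor of 1 and expressed as log2. Groups were compared with limma 3.58.1 in R 4.3.3 (lmFit, eBayes, Benjamini-Hochberg over all 57 miRNAs, threshold 0.05), without a replicate block. limma gave all 57 the same spread, on which the intervals and p-values rest. Functions were tested on simulated data. Tables were made in Python 3.11.15 with pandas 2.3.3. The members, lists and signal were chosen with earlier results of these data known. Named are the 5 members, their passenger arms, listed miRNAs past the signal minimum, and the 3 miRNAs with the closest profile. Alternatives covered signal, background, scaling, floor, filter, eBayes trend, block and each array left out.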

Additional observations from a re-analysis of the deposited data

Results flagged for a closer look

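In the scanner file of the second MG array, the total per miRNA was 89.6 for miR-200a-3p, above the totals of 31.1 and 30.1 on the non-MG arrays. This column was not used in the main comparisons and served as an alternative signal. The sum of its probes above their error on the same array was 18.1 before scaling, 4.95 times lower, and the deposited table holds the sum. On the other 3 arrays total and sum were equal for miR-200a-3p, and for the other 4 members they were equal on every array. The cause was not tested.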

How the results depend on the processing

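The values of the family were followed over the settings, with the counts over it and over all miRNAs tested. Of these, 87 did not move, change direction or, where tested, cross the threshold. Another 13 no longer passed it, 1 newly passed it, 25 moved and 7 changed direction. For these values the cause was not tested. The log2 change of miR-141-3p, -0.39 as reported, was no longer called with the scanner software's total per miRNA (-0.62), the brightest probe (-0.30), normexp (-0.23), no scaling (-0.40), median scaling (-0.34), quantile normalization (-0.27), and, at the same -0.39, with a signal minimum of 20, without a signal minimum, with the eBayes trend and with the replicate block. Leaving out 1 array gave -0.61 to -0.18. miR-200b-3p turned to 0.19 with the brightest probe, 0.019 with median scaling and 0.081 with quantile normalization, and ranged from -0.13 to 0.063 with 1 array left out, where only the value without non-MG replicate 1 was above 0. miR-200c-3p turned to 0.072 with the brightest probe, and ranged from -0.15 to 0.036, again above 0 only without non-MG replicate 1. Neither was called in any setting. miR-200a-3p turned to 0.44 with the total per miRNA, moved to -0.23 with the brightest probe and -0.10 with normexp, and was called at -0.49 with a signal minimum of 20. Leaving out 1 array gave -0.73 to -0.25, also with that minimum. The range for miR-429 was -0.53 to -0.03.

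The number of members called was 1. It was 0 with the total per miRNA, the brightest probe, normexp, no scaling, median scaling, quantile normalization, no signal minimum, the eBayes trend and the replicate block, and 0 to 1 with 1 array left out. With a signal minimum of 20 it was again 1, another member. Among all tested miRNAs limma called 14, and 0 with the total per miRNA (28 at an unadjusted p under 0.05), 7 with the brightest probe, 9 with normexp, 6 without scaling, 1 without a signal minimum and 8 with the replicate block. Leaving out 1 array gave 3 to 11. The share higher in MG cells was 6 of 7 with the brightest probe, 6 of 9 with normexp and 6 of 11 with quantile normalization. The median over all tested miRNAs, -0.08, moved to -0.29 with the total per miRNA and to 0.04 with the brightest probe. The median log2 change of the 5 members was -0.28, -0.032 with normexp and -0.53 to -0.10 with 1 array left out. With 1 array left out, the lone array was assumed to vary like the other group.

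The values of the other EMT-linked miRNAs under the alternatives were added after the data had been seen, as were the fits with arrays left out at a minimum of 20. miR-31-5p stayed lower in MG cells in 17 of 17 settings and called in 5. miR-21-5p turned to 0.13 with the brightest probe, 0.0039 with normexp and 0.031 with median scaling, and with 1 array left out ranged from -0.18 to 0.14. It was called in 1 setting, quantile normalization (-0.13, adjusted p = 0.005, limma), and miR-34a-5p and miR-221-3p in 0. miR-34a-5p turned to 0.0088 without MG replicate 2, in a range down to -0.44.

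Deviations of arrays with the same number correlated at 0.481 across 57 miRNAs, but with 2 pairs and no shared day or batch in the labels they share only a number, and the replicate block was not used. Scaling to the 75th percentile of every miRNA was not run, because undetected miRNAs supply that percentile on all 4 arrays, and the slide was no block, since there was 1. Quantile normalization gave no values for miR-200a-3p and miR-429. Signal over background limits the comparison to members above 50.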

Other observations

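Among the listed EMT-linked miRNAs below the signal minimum, those with the largest difference among miRNAs detected on all arrays were chosen after their values had been seen. miR-181a-5p had scaled signals of 27.3 and 23.1 in non-MG and 14.0 and 13.6 in MG cells, a fold change of 0.552. miR-30c-5p had signals of 13.0 and 16.3 against 9.24 and 8.05, a fold change of 0.594. miR-222-3p had signals of 32.8 and 33.3 against 38.1 and 42.6, a fold change of 1.22. With the signal minimum of 20, miR-181a-5p was called (adjusted p = 3.15e-05, limma over 91 miRNAs) and miR-222-3p was not (adjusted p = 0.229). The call of miR-181a-5p was lost without non-MG replicate 1 (fold change 0.600, adjusted p = 0.125, limma) and without non-MG replicate 2 (0.508, adjusted p = 0.0564), and held without either MG array. miR-30c-5p stayed below that minimum and was not tested.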
